A study of Mus musculus with 6 samples.

Results

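The genes described here handle fatty acids: they activate, build, lengthen, desaturate, transport, burn and store them. They were chosen by symbol alone, from the families Acsl, Acsbg, Acss, Fasn, Acac, Elovl, Fads, Scd, Cpt, Acad, Hadh, Acox, Fabp, Plin, Dgat and Pnpla and the single gene Cd36. The rule matched 73 of the 55331 genes in the authors' deposited table, and Cuffdiff, the program that compared the groups, had tested 66 of them. Names do not always match function: Acad8 and Acadsb act mainly in the breakdown of branched-chain amino acids, Acad9 also helps to assemble respiratory complex I, and Pnpla6 and Pnpla7 cleave lysophospholipids.

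Polyadenylated RNA of whole testes was sequenced from mice of mixed strain aged 35 days, in 6 libraries. The 3 control libraries carried the genotype Ptbp1fl/fl, and the 3 Ptbp1_cKO libraries the genotype Ptbp1fl/fl; Amh-Cre+/-, so floxed Ptbp1 alleles were shared by both groups. Amh-Cre drives the recombinase in Sertoli cells, the supporting cells of the seminiferous tubule that feed the developing germ cells, and PTBP1 is an RNA-binding regulator of splicing. No group carried Amh-Cre without floxed alleles, so deletion and transgene cannot be told apart, and separate animals are not stated for the libraries of a group. The table gives 1 FPKM value (fragments scaled to transcript length and library size) per group, with no value for a single library, and no SD can be given. Every p and q is Cuffdiff's as deposited; a gene is called changed at q under 0.05, with q adjusted over the 22048 genes that were tested.

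A fatty acid must be joined to coenzyme A before a cell can use it, which acyl-CoA synthetases do. Long chains then enter mitochondria through the carnitine shuttle and are shortened by acyl-CoA dehydrogenases and the trifunctional protein, or are lengthened by elongases and desaturated in the endoplasmic reticulum, or are stored as triglyceride in lipid droplets. In the testis, Sertoli cells take up residual bodies and dying germ cells and are known to burn fatty acids for energy, and germ cell membranes are rich in long polyunsaturated fatty acids made by Elovl2, Elovl5 and the Fads desaturases.

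One of the 66 tested fatty acid genes passed the threshold. Acadl, the long-chain acyl-CoA dehydrogenase that opens the oxidation of long chains in mitochondria, rose from 18.1 FPKM in control to 24.2 FPKM in Ptbp1_cKO, or 1.33 times. Among 108 further genes of the pathway, of which 101 were tested, Mlxipl rose from 2.74 to 5.54 FPKM, or 2.02 times; it encodes ChREBP, a glucose-responsive transcription factor of lipogenic and glycolytic genes. No gene fell in either set. Most levels lay close together, with 37 of the 55 tested fatty acid genes of at least 1 FPKM differing by less than 0.2 in log2 fold change.

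The sequences just before the transcription starts of the genes with the smallest p-values are shown first, with Mlxipl, because these are the places where regulators of transcription could bind. Each is the 250 bases before a RefSeq start in GRCm38.p6, the same assembly as mm10, read 5′ to 3′ on the strand of the gene. Capitals mark exact matches, on either strand, to any of 8 motifs: the nuclear receptor half-site AGGTCA, the direct repeat of AGGNCA with 1 base between, the E-box CACGTG, the carbohydrate response element (CANGNG and CNCNTG with 5 bases between), the sterol response element TCACNCCAC, the CCAAT box, the GC box GGGCGG and the cAMP response element TGACGTCA. The direct repeat can overlap the half-site, and the carbohydrate response element the E-box. The windows are chr1:66863310-66863559 (minus strand) for Acadl, chr11:115297563-115297812 (minus strand) for Fads6, chr19:3323051-3323300 (plus strand) for Cpt1a, and chr5:135089640-135089889 and chr5:135106641-135106890 (plus strand) for the upstream and downstream starts of Mlxipl. Gene positions given below come from GENCODE M21, whose starts can differ from those of RefSeq. By those positions the Cpt1a and downstream Mlxipl windows lie inside the gene, and the Fads6 window lies partly inside.
Acadl: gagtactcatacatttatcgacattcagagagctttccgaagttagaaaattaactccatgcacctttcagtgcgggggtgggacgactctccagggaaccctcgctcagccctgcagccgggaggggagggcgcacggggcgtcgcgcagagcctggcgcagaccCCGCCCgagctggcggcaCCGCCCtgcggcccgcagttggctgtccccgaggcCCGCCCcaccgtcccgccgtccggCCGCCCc
Fads6: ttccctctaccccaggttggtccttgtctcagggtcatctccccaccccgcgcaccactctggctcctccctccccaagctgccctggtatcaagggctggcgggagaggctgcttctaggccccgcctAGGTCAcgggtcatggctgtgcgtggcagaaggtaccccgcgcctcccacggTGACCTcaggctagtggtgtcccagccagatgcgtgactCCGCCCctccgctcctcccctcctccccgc
Cpt1a: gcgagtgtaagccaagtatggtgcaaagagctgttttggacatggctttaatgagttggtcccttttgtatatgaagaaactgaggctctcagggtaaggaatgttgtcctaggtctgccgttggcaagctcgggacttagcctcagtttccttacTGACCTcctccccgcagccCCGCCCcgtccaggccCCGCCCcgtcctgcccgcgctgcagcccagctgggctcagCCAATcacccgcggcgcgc
Mlxipl upstream start: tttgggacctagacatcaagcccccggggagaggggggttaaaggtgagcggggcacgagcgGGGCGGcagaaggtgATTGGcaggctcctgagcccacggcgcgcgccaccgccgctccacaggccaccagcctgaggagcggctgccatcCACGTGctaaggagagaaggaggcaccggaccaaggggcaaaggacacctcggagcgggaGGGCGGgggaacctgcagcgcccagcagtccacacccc
Mlxipl downstream start: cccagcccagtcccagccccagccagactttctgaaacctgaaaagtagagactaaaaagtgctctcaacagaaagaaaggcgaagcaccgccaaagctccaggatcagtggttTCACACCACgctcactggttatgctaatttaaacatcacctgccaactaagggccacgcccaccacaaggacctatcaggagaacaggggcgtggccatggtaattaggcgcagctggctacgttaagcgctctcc
The Acadl window held the GC box 4 times and none of the other 7 motifs. The GC box, found in 32.7% of all windows, also lay in the Fads6, Cpt1a and upstream Mlxipl windows. The CCAAT box, found in 33.8%, lay in the Cpt1a and upstream Mlxipl windows. Fads6 had the nuclear receptor half-site at 2 places and Cpt1a at 1, a sequence found in 14.0% of all 32851 windows of this length. The upstream Mlxipl window held an E-box, present in 6.02% of all windows, and the downstream one a sterol response element, present in 1.05%. Among the fatty acid genes, Elovl1 and Fabp1 held the direct repeat (0.338% of all windows), Elovl5, Pnpla5 and Pnpla7 an E-box, Acsl1 and Fabp6 a sterol response element, and Pnpla3 a cAMP response element (1.55% of all windows). Windows were found for 58 of the 73 fatty acid genes. Counted by gene, 33 of these 58 held a GC box, 29 a CCAAT box and 13 the half-site, where 35.4%, 37.5% and 15.8% of all 27025 genes with a window did. The carbohydrate response element, the sequence that ChREBP is known to bind, was found in 0 of the 58 and in 0.525% of all 27025 genes. An element this rare would seldom be met among 58 genes, so the count of 0 is not a result about them. A match is a stretch of letters, not a measured binding site.

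**Figure D1:**
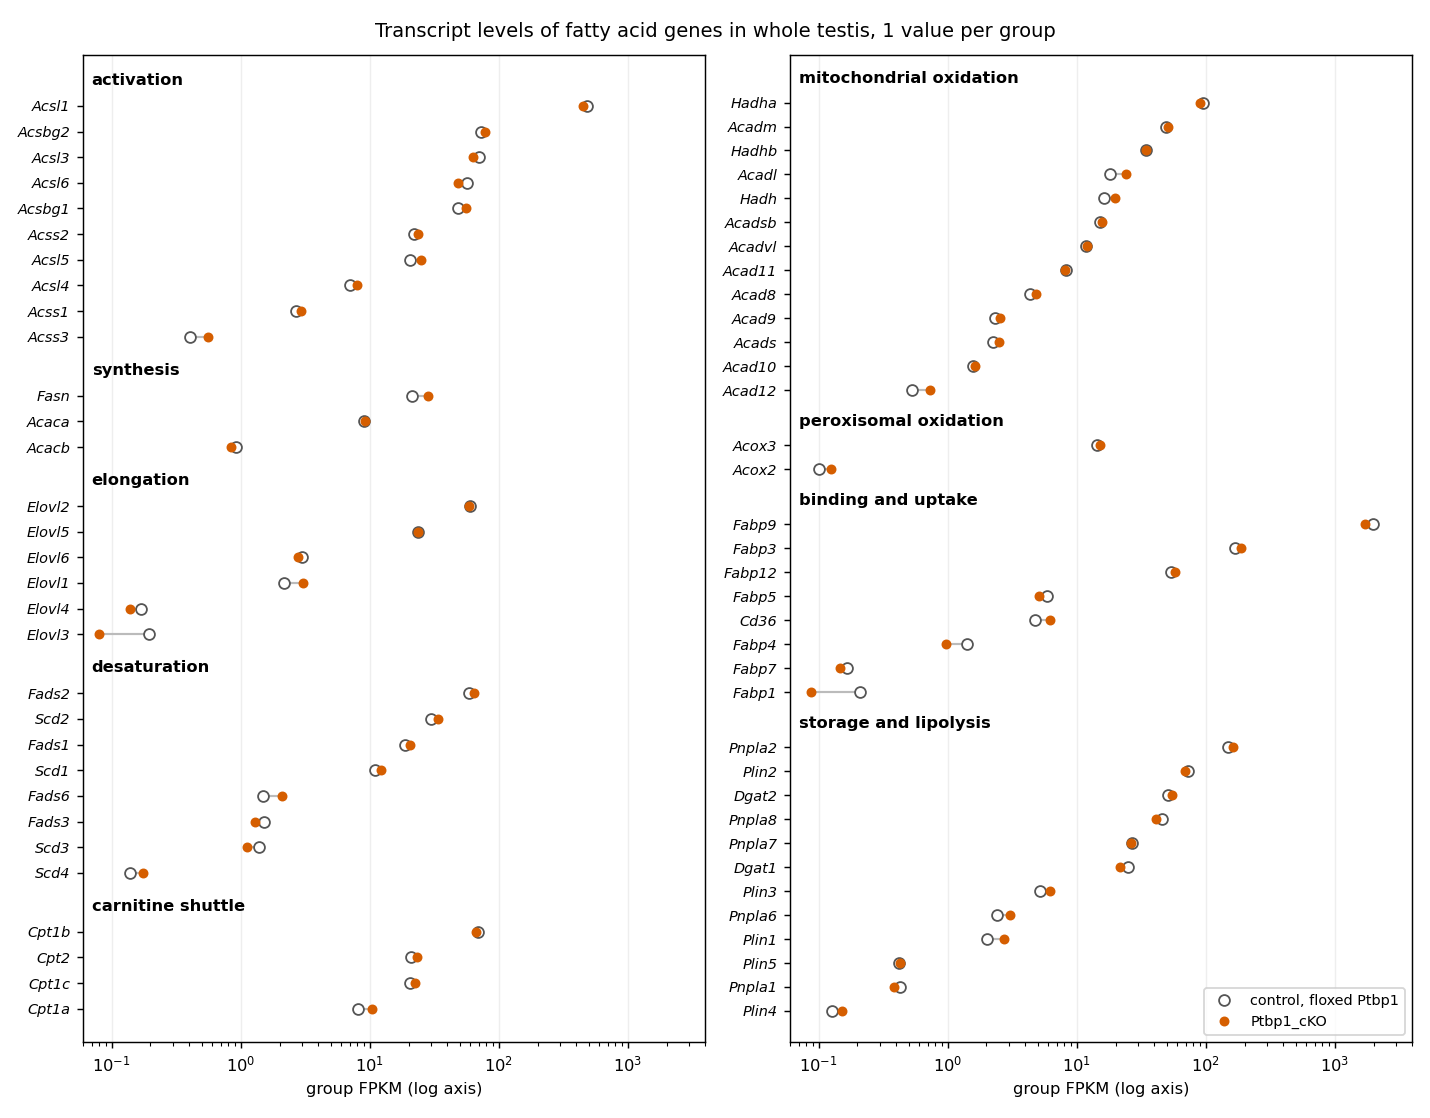
Group FPKM (log axis) of 66 of the 67 fatty acid genes with at least 0.1 FPKM in a group, by role; open points are control and filled points Ptbp1_cKO, each 1 value from 3 libraries. Levels run up to Fabp9 at 1970.1 FPKM, and the 2 points of most genes nearly coincide; Acadl stands at 18.1 and 24.2 FPKM.

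Activation was dominated by 1 gene. Acsl1, a long-chain acyl-CoA synthetase, stood at 482 FPKM in control and 448 FPKM in Ptbp1_cKO and held 61.5% and 59.5% of the summed FPKM of the 10 activating enzymes. Its log2 fold change was -0.10 (unadjusted p = 0.423 and q = 0.999 in the authors' deposited table). Next came Acsbg2, a bubblegum-family synthetase known from testis and brain, at 73.1 and 78.1 FPKM (log2 fold change 0.09, q = 0.993 in the authors' deposited table), Acsl3 at 70.8 and 62.9 FPKM, and Acsl6 at 56.7 and 48.0 FPKM. Acsl6, which favours polyunsaturated chains, had the smallest p of this group but did not pass (log2 fold change -0.24, unadjusted p = 0.0213 and q = 0.388 in the authors' deposited table). Among those of at least 1 FPKM, Acsl5 had the largest difference in the other direction, from 20.6 to 25.0 FPKM (log2 fold change 0.28, q = 0.999 in the authors' deposited table). The X-linked Acsl4, a synthetase for arachidonic acid, stood at 6.98 and 8.03 FPKM. The acetate-activating enzymes were lower in level, with Acss2 at 22.2 and 23.7 FPKM, Acss1 at 2.66 and 2.93 FPKM and Acss3 at 0.403 and 0.555 FPKM. Of the 10 enzymes 7 had a higher FPKM in Ptbp1_cKO, and the 3 with a lower one, Acsl1, Acsl3 and Acsl6, were among the 4 most abundant.

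In synthesis, fatty acid synthase (Fasn), which builds palmitate, stood at 21.3 and 28.4 FPKM, or 1.34 times the control. The size of that difference was close to that of Acadl, yet Fasn did not pass (log2 fold change 0.42, unadjusted p = 0.0478 and q = 0.546 in the authors' deposited table). Acaca, the carboxylase that supplies its malonyl-CoA, was at 9.01 and 9.16 FPKM, a value made uncertain by the pseudogene Gm5182 that matches 64.3% of its transcript, and Acacb, the mitochondrial carboxylase whose malonyl-CoA restrains the carnitine shuttle, at 0.917 and 0.834 FPKM. Their log2 fold changes were 0.02 and -0.14, with q = 0.999 for both in the authors' deposited table. Further genes around synthesis, from substrate supply to the synthesis enzymes of mitochondria, showed 0 calls among 8 tested, and 0 had an unadjusted p under 0.05 by Cuffdiff. Of these, the citrate lyase Acly was at 17.1 and 17.7 FPKM and malic enzyme Me1 at 96.5 and 99.8 FPKM.

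Elongation rested on Elovl2 and Elovl5, the elongases of polyunsaturated chains. Elovl2 held 67.4% of the summed elongase FPKM in control and 66.4% in Ptbp1_cKO, at 60.2 and 58.9 FPKM, and Elovl5 stood at 23.5 and 23.7 FPKM. Their log2 fold changes were -0.03 and 0.01, with q = 0.999 for both in the authors' deposited table. Elovl4, which makes very long chains, was listed at only 0.170 and 0.138 FPKM. Elovl1, an elongase of saturated chains, stood at 2.15 and 3.05 FPKM, the largest difference among tested elongases of at least 1 FPKM (log2 fold change 0.50, unadjusted p = 0.312 and q = 0.968 in the authors' deposited table). Elovl3 was at 0.196 and 0.0796 FPKM, which correspond to about 71 and 26 fragments over a whole group (unadjusted p = 0.051 and q = 0.560 in the authors' deposited table). None of the 6 tested elongases had an unadjusted p under 0.05 by Cuffdiff. In the enzymes that complete the elongation cycle, the trans-enoyl-CoA reductase Tecr stood at 40.9 and 52.0 FPKM without passing (log2 fold change 0.35, unadjusted p = 0.0033 and q = 0.140 in the authors' deposited table).

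Desaturation had 6 of 8 genes with a higher FPKM in Ptbp1_cKO and 0 past the threshold, with 1 at an unadjusted p under 0.05 by Cuffdiff. That gene was Fads6 (chromosome 11, 115279622 to 115297663), a desaturase-like gene whose substrate is not established, at 1.49 and 2.08 FPKM. It did not pass, with a log2 fold change of 0.48, unadjusted p = 0.00115 and q = 0.0759 in the authors' deposited table. The abundant desaturases showed smaller differences. Fads2, the delta-6 desaturase, stood at 58.8 and 64.5 FPKM, Fads1, the delta-5 desaturase, at 18.7 and 20.6 FPKM, and the stearoyl-CoA desaturases Scd2 and Scd1 at 29.9 and 33.7 and at 10.9 and 12.2 FPKM. These 4 had log2 fold changes between 0.13 and 0.18 in the authors' deposited table, and q was 0.858 for Fads2 and 0.773 for Scd2. Fads3, Fads2 and Fads1 lie side by side on chromosome 19, as do Scd3, Scd2, Scd4 and Scd1. Neighbours differed widely in level: Scd4, 26.2 kb from Scd2, was at 0.139 and 0.176 FPKM.

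The carnitine shuttle was carried by Cpt1b, the outer-membrane transferase known from muscle, at 68.5 and 66.4 FPKM, and 58.0% of the group's FPKM in control. Another gene, Gm44502, shares 81.4% of the exon bases of Cpt1b on the same strand, so a part of these reads could be assigned to either. Cpt1a (chromosome 19, 3322334 to 3385733), the widely expressed form of the same rate-setting transferase, stood at 8.07 and 10.3 FPKM, or 1.28 times. It did not pass (log2 fold change 0.36, unadjusted p = 0.00295 and q = 0.132 in the authors' deposited table). Cpt1c, a form known from neurons, was at 20.6 and 22.3 FPKM and the inner-membrane Cpt2 at 20.9 and 23.3 FPKM. The log2 fold changes of Cpt1b and Cpt2 were -0.05 and 0.15, with q = 0.999 and 0.991 in the authors' deposited table. The acylcarnitine carrier Slc25a20 stood at 14.8 and 12.7 FPKM, and the carnitine acetyltransferase Crat, far higher in level, at 261 and 259 FPKM.

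Mitochondrial oxidation held the single call. Acadl (ENSMUSG00000026003.5, chromosome 1, 66830839 to 66863277, minus strand) had a log2 fold change of 0.41, p = 0.00045 and q = 0.0420 in the authors' deposited table. Of all tested genes 0.458% were called higher and 0.703% lower, or 1.16% in all. One of 66 is 1.52%, a share near that background, so the count is not a result about fatty acid genes as a group. The values rest on about 6707 fragments in control and 8119 in Ptbp1_cKO. No exon of another annotated gene overlaps Acadl, and no other transcript matched as much as 20% of it at 95% identity. When p was taken from the deposited test statistic of 2.01 under a normal distribution, adjusted p was 0.9999 and the call was lost.

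The other straight-chain dehydrogenases had smaller log2 fold changes, and whether they differed from Acadl was not tested. Acadm, for medium chains, stood at 48.9 and 50.8 FPKM (log2 fold change 0.05, q = 0.999 in the authors' deposited table), Acadvl, for very long chains, at 11.7 and 12.1 FPKM, and Acads, for short chains, at 2.27 and 2.51 FPKM. Acadvl shares 42.9% of its exon bases with Dvl2 on the opposite strand; the kit keeps strand, but the counting setting is not given in the sources used here. Hadh, the short-chain hydroxyacyl-CoA dehydrogenase, stood at 16.4 and 19.8 FPKM (log2 fold change 0.27, unadjusted p = 0.0237 and q = 0.410 in the authors' deposited table). Hadha and Hadhb, the subunits of the trifunctional protein, start 85 bases apart on opposite strands of chromosome 5 and are needed together. Hadha was at 95.6 and 90.5 FPKM and Hadhb at 34.7 and 34.3 FPKM, so neither differed by more than 0.08 in log2 fold change (q = 0.999 for both in the authors' deposited table). FPKM was higher in Ptbp1_cKO for 10 of these 13 genes. Acad10 and Acad12, neighbours on chromosome 5, share near-identical stretches and their values of 1.57 and 1.62 and of 0.531 and 0.729 FPKM are uncertain. None of 13 tested partner genes of beta-oxidation had an unadjusted p under 0.05 by Cuffdiff. Among these partners, the electron carrier subunit Etfb stood at 36.9 and 36.1 FPKM and the thiolase Acaa2 at 16.0 and 17.4 FPKM.

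In peroxisomal oxidation, Acox3, an oxidase of branched chains, stood at 14.2 and 15.2 FPKM (log2 fold change 0.09, q = 0.999 in the authors' deposited table). Acox2 and Acoxl were at or below 0.125 FPKM in both groups and were not tested. None of the 14 peroxisomal partner genes passed, and 0 had an unadjusted p under 0.05 by Cuffdiff; the bifunctional enzyme Hsd17b4 stood at 18.9 FPKM in both groups.

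**Figure D2:**
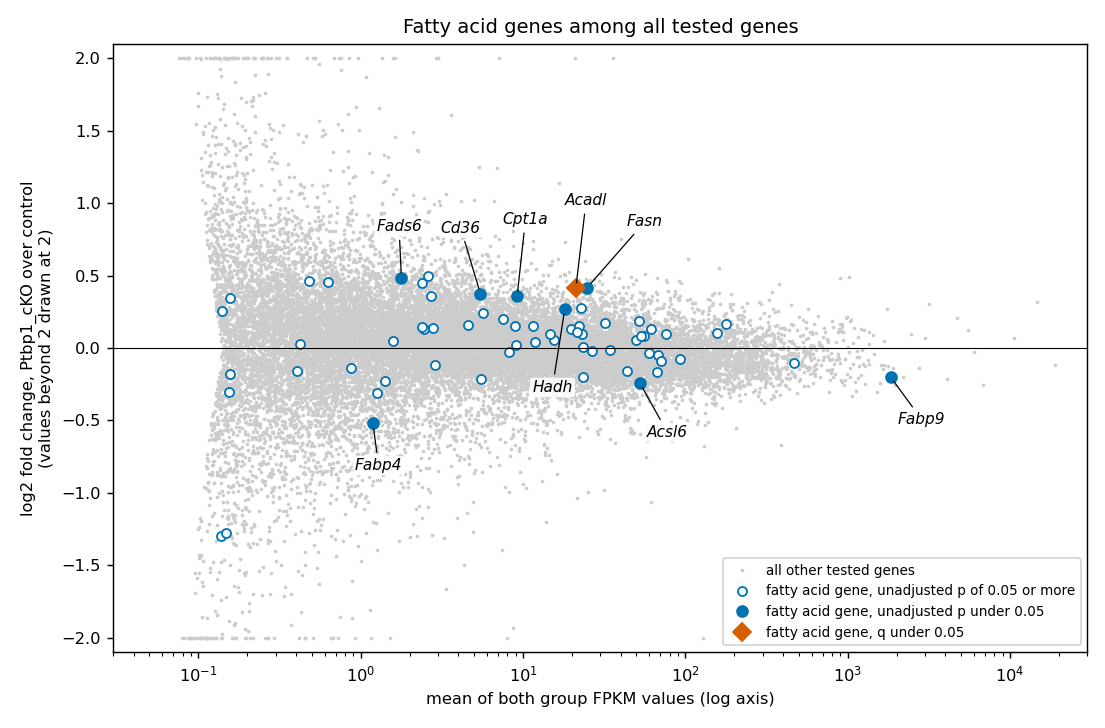
Log2 fold change, Ptbp1_cKO over control, in the authors' deposited table against the mean of both group FPKM values (log axis) for tested genes above 0 in both groups; values beyond 2 are drawn at 2. Acadl, the diamond, is the 1 fatty acid gene with q under 0.05, and the 8 filled circles have an unadjusted p under 0.05 without passing.

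Among the carriers, Fabp9, the fatty acid-binding protein of male germ cells, had the highest level of all 73 genes, at 1970.1 FPKM in control and 1714 FPKM in Ptbp1_cKO. It alone held 89.3% of the summed FPKM of its group in control. The value did not pass the threshold (log2 fold change -0.20, unadjusted p = 0.0404 and q = 0.507 in the authors' deposited table). A second annotated gene, Gm37389, covers 53.0% of its exon bases on the same strand, at 2.98 and 2.18 FPKM. Fabp3, a carrier known from heart and muscle, came next at 168 and 189 FPKM (log2 fold change 0.17, q = 0.783 in the authors' deposited table). A processed pseudogene, Fabp3-ps1, matches 48.8% of the Fabp3 transcript at 99.25% identity, so the Fabp3 value is uncertain. Fabp12 stood at 54.3 and 57.5 FPKM. Fabp9, Fabp4 and Fabp12 lie in a row on chromosome 3, 6.80 kb and 35.6 kb apart, and their levels span 3 orders: Fabp4 was at 1.40 and 0.977 FPKM. Fabp5, a carrier of skin and other tissues, was at 5.91 and 5.10 FPKM. Cd36, a membrane receptor for long-chain fatty acids and for apoptotic cells, stood at 4.77 and 6.18 FPKM (log2 fold change 0.37, unadjusted p = 0.0474 and q = 0.545 in the authors' deposited table). Fabp1, the liver form, was at 0.211 and 0.0871 FPKM, about 14 and 5 fragments, and Fabp2 and Fabp6 were listed at 0 in both groups.

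Fabp4, the carrier of adipocytes and some macrophages and endothelial cells, went against Cd36, with a log2 fold change of -0.52 (unadjusted p = 0.0497 and q = 0.555 in the authors' deposited table). Of 7 adipocyte markers with at least 0.1 FPKM in a group, 5 including Fabp4 had a lower FPKM in Ptbp1_cKO. Lep, Ucp1 and Adrb3 were under 0.1 FPKM. The summed level of all 10 markers was 219 FPKM in control and 237 FPKM in Ptbp1_cKO, most of it from Lipe. Without Lipe and the fatty acid genes Plin1 and Fabp4 it was 6.80 and 5.12 FPKM. Of those left out, Lipe and Plin1 were higher in Ptbp1_cKO and Fabp4 was lower. Cfd was the 1 marker past the threshold and fell from 1.23 to 0.501 FPKM, while Adipoq stood at 4.59 and 3.86 FPKM. Plin1, the droplet protein of adipocytes, was the other way round at 2.01 and 2.75 FPKM (log2 fold change 0.45, unadjusted p = 0.122 and q = 0.751 in the authors' deposited table). The part of adipocytes in these values was not tested.

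Storage and lipolysis had 0 of 12 tested genes with an unadjusted p under 0.05 by Cuffdiff. Pnpla2, the adipose triglyceride lipase, was the most abundant at 150.1 and 161 FPKM, beside its activator Abhd5 at 83.2 and 82.5 FPKM and the hormone-sensitive lipase Lipe at 209 and 228 FPKM. Plin2, the common coat protein of droplets outside fat tissue, stood at 72.8 and 68.5 FPKM. The log2 fold changes of Pnpla2 and Plin2 were 0.11 and -0.09, with q = 0.999 for both in the authors' deposited table. The enzymes of the last step of triglyceride synthesis, Dgat2 and Dgat1, were at 51.4 and 54.6 and at 25.0 and 21.8 FPKM. Pnpla8, a mitochondrial and peroxisomal phospholipase, was at 46.1 and 41.3 FPKM and Plin3 at 5.21 and 6.18 FPKM. Pnpla3, at 0.00365 and 0.0326 FPKM, rested on about 1 and 7 fragments, and Pnpla5 was listed at 0. Scarb1, a lipoprotein receptor through which Sertoli cells are known to recognise apoptotic germ cells, belongs to the uptake partners and stood at 30.5 and 38.7 FPKM (log2 fold change 0.35, unadjusted p = 0.00165 and q = 0.0923 in the authors' deposited table).

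Regulators of these genes formed a list of 19, of which 18 were tested. Like the other lists, it was chosen with earlier results of these data known. Mlxipl (ENSMUSG00000005373.13, chromosome 5, 135089890 to 135138382) was the only one past the threshold, with a log2 fold change of 1.02, p = 5e-05 and q = 0.00848 in the authors' deposited table. Among the partner genes 1 of 101 passed, or 0.990%, beside the background of 1.16%. With p from the statistic of 3.20 under a normal distribution, adjusted p for Mlxipl was 0.888 and its call was lost too. The gene has 2 RefSeq starts with a window here, and a gene-level value does not say which was used. Its binding partner Mlx was at 3.43 and 3.05 FPKM. Among genes that ChREBP is known to regulate, Fasn was 1.34 times control, Acly 1.04, Acaca 1.02, Scd1 1.11 and Elovl6 0.923 times. These 5 are examples and not a planned list, and 0 of these 5 passed. Whether any of their values is linked to Mlxipl was not tested. The lipogenic factor Srebf1 was at 1.84 and 2.19 FPKM, the receptor Ppara, which controls oxidation genes such as Acadl and Cpt1a, at 0.464 and 0.545 FPKM, and its partner Rxra at 17.9 and 21.5 FPKM.

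**Figure D3:**
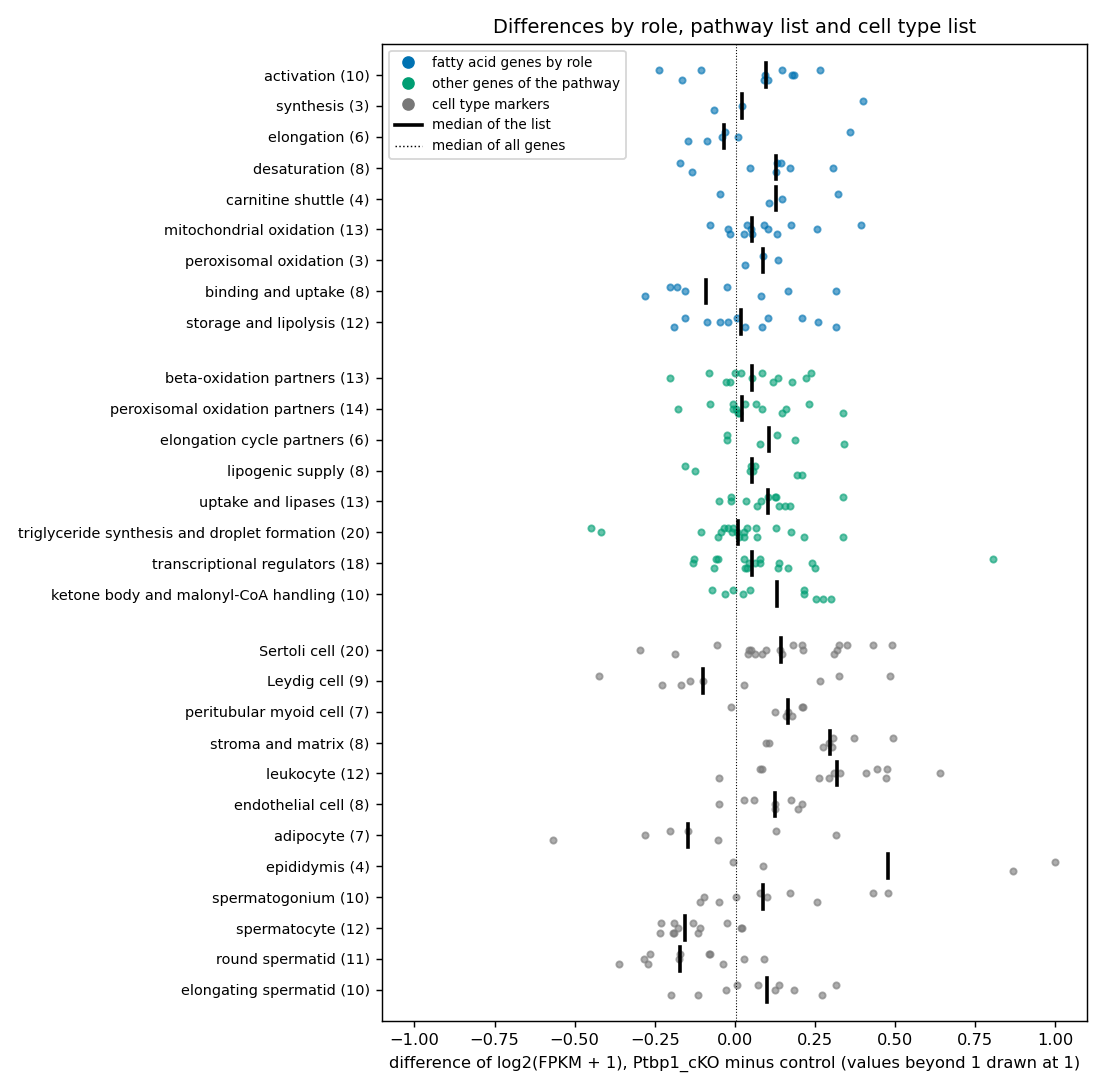
Difference of log2(FPKM + 1), Ptbp1_cKO minus control, for each gene with at least 0.1 FPKM in a group, by role, pathway list and cell type list (number of genes in brackets); bars are list medians and the dotted line the median of all genes. Role medians run from -0.09 for binding and uptake to 0.13 for desaturation, and the outlying pathway gene at 0.81 is Mlxipl.

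Across the set, an unadjusted p under 0.05 was found for 9 of the 66, 6 higher (Acadl, Fads6, Cpt1a, Hadh, Cd36 and Fasn) and 3 lower (Acsl6, Fabp9 and Fabp4). That is 13.6% beside 8.98% of all tested genes, of which 4.38% were higher and 4.59% lower. Of the 67 genes with at least 0.1 FPKM in a group, 43 (64.2%) had a higher FPKM in Ptbp1_cKO, beside 51.2% of all 23462 such genes. The median difference of log2(FPKM + 1) was 0.05, beside 0.004 over all such genes, and for partner genes it was 0.05, with 70 of 102 (68.6%) higher. For the fatty acid genes it was 0.0941 with a pseudocount of 0.1 and 0.0905 at a minimum of 1 FPKM, beside 0.00685 and -0.00428 over all genes treated likewise. By mean level, higher values were found for 6 of 12 genes at 0.1 to 1 FPKM, 15 of 21 at 1 to 10 FPKM, 15 of 19 at 10 to 50 FPKM and 7 of 15 at 50 FPKM or more. The shares of all genes in the same ranges were 56.2%, 57.8%, 42.7% and 33.1%, and the difference between ranges was not tested. The summed FPKM of all 73 genes was 4017 in control and 3791 in Ptbp1_cKO, and Fabp9 alone was lower by more than that difference. These are descriptions, with no test over the genes as a set. Other call rules had other backgrounds over all genes. At q under 0.1, where Acadl and Fads6 passed, it was 1.91%, with 0.835% higher and 1.07% lower. With q over genes of at least 1 FPKM, where Acadl passed, it was 1.61%, with 0.633% higher and 0.981% lower. With the normal p, where no fatty acid gene passed, it was 0.0863%, with 0.0409% higher and 0.0454% lower.

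Markers of cell types moved in these libraries too, and their part in the fatty acid values was not tested. FPKM was higher in Ptbp1_cKO for 17 of 20 Sertoli cell markers (summed level 1973 and 2261 FPKM; Clu rose), 8 of 8 stroma and matrix markers (176 and 224 FPKM; Col1a1 and Dcn rose) and 11 of 12 leukocyte markers (423 and 431 FPKM, or 56.6 and 77.3 FPKM without the most abundant, Aif1; C1qb and Fcer1g rose). Among the Sertoli cell markers, Clu alone went from 854 to 1199 FPKM, by more than the summed difference. The summed level of the other Sertoli cell markers was lower in Ptbp1_cKO. FPKM was lower for 10 of 12 spermatocyte markers (1069 and 966 FPKM) and 9 of 11 round spermatid markers (2329 and 2182 FPKM), with none past the threshold. It was higher for 7 of 10 elongating spermatid markers (53399 and 56569 FPKM). Among these 10, Prm1 alone went from 13135 to 16362 FPKM, by more than the summed difference. Prm2 and Odf2, marked HIDATA and listed at 0, are not among the 10. Leydig cell markers were higher for 4 of 9 (1185 and 1452 FPKM, or 435 and 404 FPKM without Insl3, which rose), endothelial markers for 7 of 8 (11.1 and 13.0 FPKM) and myoid markers for 6 of 7 (239 and 272 FPKM). The spermatogonial markers Kit and Uchl1 rose among 7 of 10 with a higher value (1372 and 1296 FPKM, or 88.5 and 104 FPKM without Dmrtb1). Of 8 epididymis markers only 3 were tested, and 2 of these rose. Crisp1 went from 0.0482 to 5.90 FPKM and Defb26 from 0 to 0.823 FPKM. Rnase10, the other tested marker, stood at 1.98 FPKM in both groups, and Lcn8 was listed at 0. In whole tissue, fewer cells of a type and less RNA per cell cannot be told apart. The targeted gene, Ptbp1, stood at 49.97 FPKM in control and 46.66 FPKM in Ptbp1_cKO, a difference the authors' deposited table gives q = 0.999. Since most cells of the testis are not Sertoli cells, this level does not check the labels.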

How the data were processed

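The data are the authors' deposited Cuffdiff gene table, with 1 FPKM per group, made by the authors from 3 libraries each, and the deposited log2 fold change, p-value and q-value. Its test statistic is used as a score, per the file headers. Software listed in the submitters' processing notes was bcl2fastq 2.20, Trimmomatic 0.38, STAR 2.6.1d, Cufflinks and Cuffdiff, with the build mm10. The library normalisation, strand setting and annotation release were not given in the sources used here. Of 55331 genes, 22048 were tested, 33263 were not, 18 were marked HIDATA and 2 failed.

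Steps between low FPKM values of 3206 single-exon genes of 1500 to 6000 bp gave the worth of 1 fragment. One FPKM over 1 kb of effective length stood for about 223 fragments in the control group and 203 in the Ptbp1_cKO group, and 3 fragments in 1 library for at most 0.0151 and 0.0154 FPKM. Fragment numbers used the longest transcript less 260 bp, are approximate and cover counting error only. A group FPKM hides the spread between libraries, and the p-values measure it only through Cuffdiff's model.

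Lists were compared on log2(FPKM + 1) for genes of at least 0.1 FPKM in a group, a scale that understates low genes. Positions came from GENCODE M21 (98.6% of identifiers matched with version, and Plin4 without), promoters from RefSeq, and copies from BLAST 2.17.0 at 95% identity. The normal p was computed from the test statistic. The adjustment of p-values and the search for fragment steps were tested on simulated data. Those p-values came from simulated normal scores, so they cannot check whether a normal p suits Cuffdiff's statistic. Statistics are given for genes past the threshold, for those with an unadjusted p under 0.05, and in each of 9 roles for the 2 most abundant genes and the 1 with the largest log2 fold change at 1 FPKM or more. Partner genes past the threshold and the next 3 by p have them too; Elovl3, Agpat2, Mogat1, Fitm1 and Lpin3 were added after their values were seen. One member of the chosen families and 1 partner gene are not reported here by name, but enter the counts. The members and lists were chosen with earlier results of these data known. Alternatives were the normal p, q under 0.1, unadjusted p, tests limited to genes of at least 1 FPKM, another pseudocount and filter, and centring.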

Additional observations from a re-analysis of the deposited data

How the results depend on the processing

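With p from the test statistic under a normal distribution, 0 fatty acid genes and 0 partner genes were higher, in place of 1 each, beside 0.0863% of all genes called. At q under 0.1 the counts were 2 and 2, adding Fads6 and Scarb1, beside 0.835% of genes higher. At an unadjusted p under 0.05 they were 6 and 9 higher, with 3 fatty acid genes and 0 partner genes lower, beside 4.38% of all genes higher and 4.59% lower; the 9 partner genes are 8.91% of those tested. Restricting Cuffdiff's p-values to genes of at least 1 FPKM left all 4 counts as they were, with q = 0.0340 for Acadl and 0.00647 for Mlxipl. The median difference over fatty acid genes was 0.05; it was 0.0941 with a pseudocount of 0.1, 0.0467 without a filter on FPKM, 0.0905 at a minimum of 1 FPKM, and 0.0492 after centring on the median of all genes. Of the 32 genes with full statistics, only Acadl and Mlxipl had a call to lose, and both lost it with the normal p. Another 11 had an unadjusted p under 0.05, a count set by the rule that chose genes for a small p. No paired analysis was possible because the table holds 1 value per group, and leaving out replicates was not run for the same reason. Depth limits the genes under about 0.1 FPKM, such as Pnpla3.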

Other observations

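Genes of ketone bodies, a product of fatty acid oxidation, and of malonyl-CoA handling shared a pathway list and have not been described above. The same list held the acyl-CoA synthetase Acsf2. Of 10 genes, 0 passed Cuffdiff's threshold and 4 had an unadjusted p under 0.05, all with a higher FPKM in Ptbp1_cKO, where 4.38% of all tested genes were higher at that p; 3 of the 4 follow. Oxct2a and Oxct2b, the transferases by which spermatids use ketone bodies, stood at 76.5 and 89.0 FPKM and at 79.2 and 94.6 FPKM. Their transcripts are 97.98% identical, so reads may be divided between them and the 2 values are uncertain. Acsf2, an acyl-CoA synthetase outside the families chosen by name, was at 4.12 and 5.19 FPKM (log2 fold change 0.33, unadjusted p = 0.0133 and q = 0.304 in the authors' deposited table). A processed pseudogene, Gm5540, matches 58.6% of its transcript at 99.03% identity, so this value is uncertain too. The somatic form of the transferase, Oxct1, stood at 65.1 and 61.9 FPKM, and the list's median difference was 0.13.

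In the synthesis of triglyceride before its last step, the most abundant genes differed little. Agpat3 stood at 283 and 282 FPKM, Gpat4 at 166 and 170.2 FPKM, Agpat1 at 151 and 171 FPKM, Bscl2 at 149 and 146 FPKM and Lpin1 at 141 and 148 FPKM. Less abundant genes differed more without passing: Mogat1 stood at 4.57 and 3.08 FPKM, Fitm1 at 7.58 and 5.43 FPKM and Lpin3 at 1.41 and 2.04 FPKM. Agpat2 was at 80.5 and 93.6 FPKM (unadjusted p = 0.0463 and q = 0.538 in the authors' deposited table). Of the 19 tested genes of this list 0 passed, and Agpat2 was the 1 with an unadjusted p under 0.05 by Cuffdiff.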
